A study of Homo sapiens with 12 samples.

Results

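Noncoding transcripts that are named after a neighbouring gene were examined in ribosome footprints of human lymphoblastoid cells under oxidative stress. A gene was taken when its symbol ended in -AS with a number, -DT, -OT1 or -IT1, as it did for 278 of the 12357 genes. Of these, 210 were antisense transcripts (-AS), 64 divergent transcripts (-DT), 3 overlapping transcripts (-OT1) and 1 an intronic transcript (-IT1). The annotation classed 276 of them as long noncoding RNA, and TP73-AS1 and EMC3-AS1 as pseudogenes. The coding gene in the name was itself in the table for 211 transcripts, which gave 208 distinct partners.

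An antisense transcript is made from the opposite strand of the gene it is named after, and a divergent transcript starts near the promoter of a gene and runs away from it. Such transcripts are often short-lived or kept in the nucleus, but those that reach the cytoplasm can be bound by ribosomes, over short reading frames. Sodium arsenite causes oxidative stress, which leads to phosphorylation of the initiation factor eIF2 alpha and to a loss of translation initiation on most messenger RNAs.

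The cells were GM18505, GM19193 and GM19204, lymphoblastoid lines of wild-type genotype made from B cells with Epstein-Barr virus. Of each line 1 culture was given water as a control and 1 was given sodium arsenite for 30 min. Each culture was sequenced as 2 libraries that are technical replicates, 1 with and 1 without CRISPR depletion of ribosomal RNA, and their counts were summed, so that n = 3 cell lines per condition. Synthetic RNA oligomers added to every sample set the scale, and a scaled count below is the summed count of a culture divided by its spike-in factor. The 3 lines are 1 culture each per condition, and differences between lines cannot be told apart from differences between cultures.

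Libraries held between 637177 and 4112703 gene counts, and the SE of the spike-in scale was between 0.0733 and 0.163 on the log2 scale. All 10 B-cell markers were in the table, against 1 of 5 for T cells (TRAC), 1 of 5 for myeloid cells (ITGAM) and 0 of 4 for erythroid cells. Of 5 markers of fibroblasts and epithelium, COL1A1, COL1A2 and EPCAM were in the table, with 268 reads in the arsenite culture of GM19193 and 21 to 40 in each other culture. Their part in the results below was not tested, and counts without GM19193 are given below.

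The transcripts were low in reads. Their median count was between 4.5 and 15 per library, and between 2 and 42 of them had a single read in a library. The mean count per culture was under 20 for 158 of the 278. The authors kept genes with a read in each of the 12 libraries, so a transcript that dropped to no reads could not be seen. The authors' strand setting for counting was not given in the sources used here, so reads of a transcript and of an overlapping gene on the other strand cannot be told apart. Exons of other genes covered none of the exon bases of 42 transcripts. For fragments at microRNA loci, the paper left unclear what part were true ribosome footprints. Whether reads of the transcripts here came from ribosomes was not tested.

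The summed counts of the transcripts changed less under arsenite than those of all genes. The direction of this sum depended on ZBED9-AS1, the transcript with the most reads. Summed over the 278, scaled counts were 13810, 14410 and 10820 in the control cultures of GM18505, GM19193 and GM19204 and 12970, 16120 and 12390 in the arsenite cultures, so the groups overlapped. Without ZBED9-AS1 they were 8957, 10370 and 8827 in the controls and 7028, 9674 and 6189 under arsenite, lower in each line although the groups still overlapped. Summed over all genes they were 5300000, 6068000 and 6981000 in the controls and 1560000, 2530000 and 1783000 under arsenite, which did not overlap. The transcripts therefore took a larger share of gene counts, 0.218% ± 0.0555 (SD, n = 3) in the controls and 0.721% ± 0.0997 (SD, n = 3) under arsenite. Without ZBED9-AS1 the shares were 0.155% and 0.393%. The share was higher under arsenite in every line with and without ZBED9-AS1, as the plot of shares by culture shows.

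**Figure D1:**
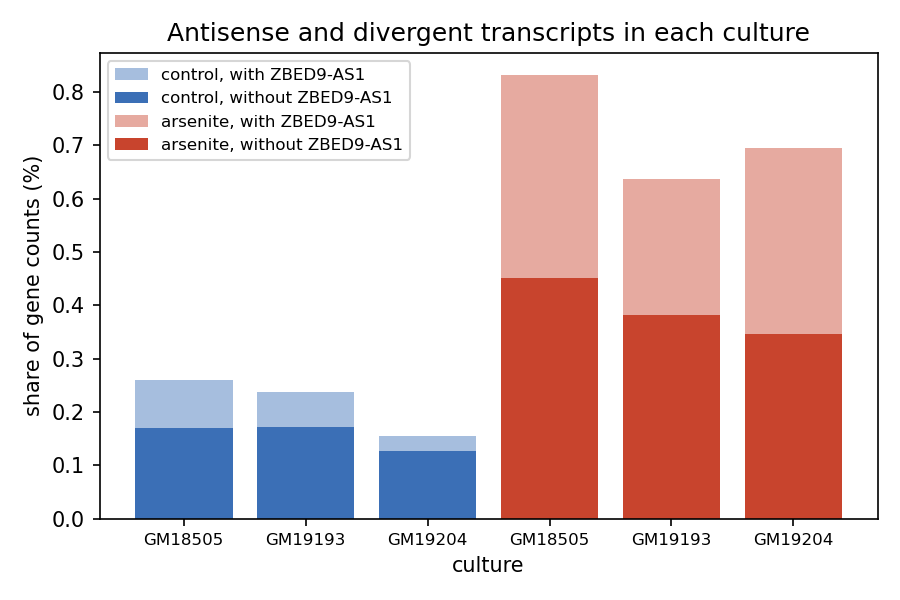
Share of gene counts (%) taken by the 278 antisense and divergent transcripts in each of 6 cultures, with ZBED9-AS1 (pale bars) and without it (dark bars). The arsenite cultures lie between 0.637% and 0.831% and the control cultures between 0.155% and 0.261%.

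Fewer of the transcripts than of all genes passed the test. With edgeR's quasi-likelihood test on the spike-in scale, 67 of 278 fell (24.1%) and 7 rose, with a median log2 fold change of -0.36. Over all genes 74.1% fell and 1.12% rose, with a median of -1.78. Of the 476 other long noncoding genes 71 fell (14.9%) and 22 rose (4.62%, against 2.52% of the transcripts), with a median of -0.19, and the difference between these 2 groups was not tested. Of 10872 protein-coding genes 8824 fell and 90 rose, with a median of -1.91. The share that fell varied with reads. Below a mean count of 10 reads per culture 5.36% of the transcripts and 7.16% of coding genes fell. At 10 to under 20 reads the shares were 25.5% and 32.9%. At 20 to under 50 reads they were 35.2% and 69.0%, and at 50 to under 200 reads 26.9% and 89.95%. On scaled counts, all 3 arsenite cultures were below all 3 controls for 60 transcripts and above them for 7, where 68.7% and 0.947% of all genes behaved so. The change was downward in all 3 lines for 117 transcripts, upward in all 3 for 26 and of mixed sign for 135.

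The direction depended on the scale. TMM scaling, which measures change relative to the bulk of genes, shifted the all-gene median by 1.81 (log2) to 0.03. On it 181 transcripts rose and 1 fell, with a median of 1.44, where 27.8% of all genes rose and 26.6% fell. The median of the transcripts minus that of all genes was 1.42 on the spike-in scale and 1.41 with TMM. The paper reported that TMM shifted fold changes of its spike-in oligomers upward from the expected values. Without GM18505 the count of falls was 24 (8.63%, against 54.3% of all genes). Without GM19193 it was 88 (31.65%, against 78.0% of all genes).

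The difference from coding genes was present where reads were many and small where they were few. Below a mean count of 10 reads per culture the median log2 fold change was -0.13 for 56 transcripts, -0.17 for 93 other long noncoding genes and -0.21 for 335 coding genes. At 10 to under 20 reads it was -0.48 for 102 transcripts, -0.27 for 151 other long noncoding genes and -0.57 for 847 coding genes. At 20 to under 50 reads it was -0.55 for 88 transcripts and -1.37 for 1819 coding genes. At 50 to under 200 reads it was -0.33 for 26 transcripts and -1.97 for 4337 coding genes. At 200 reads or more it was 0.26 for 6 transcripts and -2.32 for 3534 coding genes. In these 3 ranges from 20 reads up, other long noncoding genes had medians of -0.16 (n = 135), -0.12 (n = 73) and 0.13 (n = 24). The difference from coding genes was thus not particular to the transcripts. Below 10 reads all 3 classes thus had medians near 0, and the part that the requirement of a read in every library played in this was not tested.

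**Figure D2:**
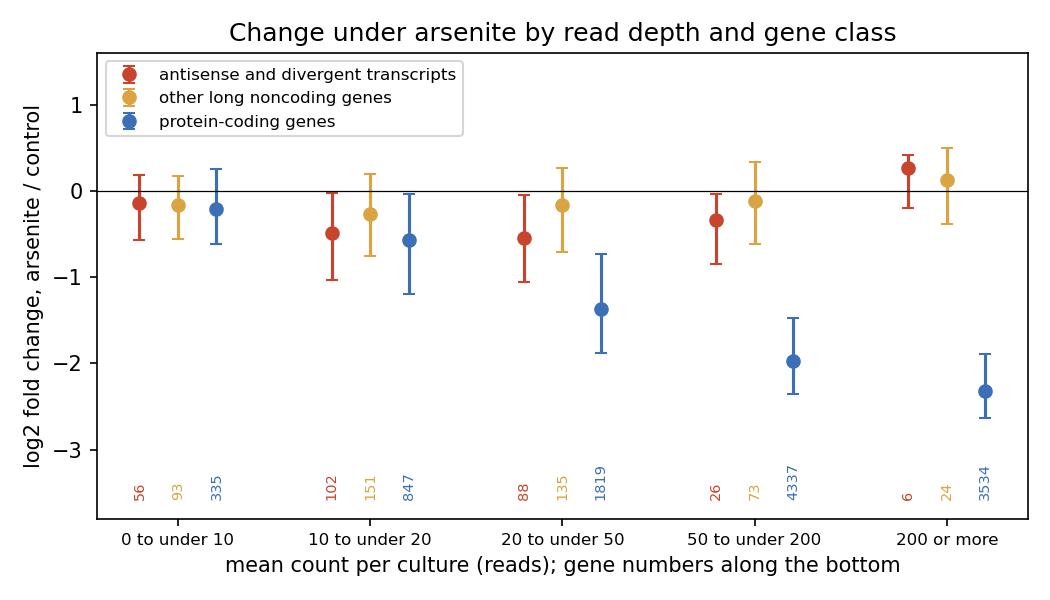
Median log2 fold change (arsenite over control, spike-in scale) with bars from the lower to the upper quartile, by mean count per culture, for the transcripts (red), other long noncoding genes (yellow) and protein-coding genes (blue). Coding genes lie lower with each step in depth, from -0.21 to -2.32, while the medians of the transcripts stay between -0.55 and 0.26.

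ZBED9-AS1 (ENSG00000246350, chr6:28587378-28591747, plus strand, GRCh38) had by far the most reads. Its counts were 5754, 3411 and 1850 in the controls of GM18505, GM19193 and GM19204 and 5052, 6241 and 8135 under arsenite, which is between 18.4% and 35.1% of all reads of the 278 transcripts in the controls and between 39.99% and 50.04% under arsenite. On the spike-in scale these were 4853, 4047 and 1997 against 5943, 6446 and 6198 scaled counts, so all arsenite cultures were above all controls. ZBED9-AS1 rose, with a log2 fold change of 0.86 (SE 0.36, adjusted p = 0.025). The call was lost in 6 of 15 alternatives, which were those without GM18505, without GM19204, with the 4 most concentrated oligomers, with no scaling, with no replicate block and with T libraries alone (the CRISPR-treated ones), and the adjusted p of the alternatives lay between 5.08e-05 and 0.467.

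A transfer RNA gene for glutamine, TRQ-TTG2-1 in RefSeq, lies whole within the exons of ZBED9-AS1. In all, 4 of the transcripts hold a RefSeq transfer RNA gene in their exons, which was looked up after their values had been seen. The authors removed reads of transfer RNA before mapping, and counts per gene do not show where in a gene the reads lie, so the part of the transfer RNA gene in these counts was not tested. The genes are shown from GRCh38, 5′ to 3′ on the strand on which the B box is read, with the B box in capitals. The B box is an internal promoter element of transfer RNA genes that the factor TFIIIC binds, and it was searched as GTTCNANNC on both strands.
TRQ-TTG2-1 in ZBED9-AS1, chr6:28589379-28589450, plus strand: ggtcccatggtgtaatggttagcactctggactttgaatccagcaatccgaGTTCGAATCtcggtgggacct
TRR-ACG2-1 in LIMD1-AS1, chr3:45688999-45689071, minus strand: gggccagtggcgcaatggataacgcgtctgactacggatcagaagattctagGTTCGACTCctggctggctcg
TRR-ACG1-3 in PRMT5-DT, chr14:22929701-22929773, plus strand: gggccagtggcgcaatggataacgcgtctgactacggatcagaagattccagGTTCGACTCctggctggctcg
TRR-TCG1-1 in POLG-DT, chr15:89335073-89335145, plus strand: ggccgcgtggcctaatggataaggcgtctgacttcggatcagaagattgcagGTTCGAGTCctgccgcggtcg

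These letters were found in 391 of 443 RefSeq transfer RNA genes (88.3%) and in 2.86% of the consecutive 72-base windows of the exons of the transcripts. The 3 transcripts with a gene for arginine transfer RNA did not pass the test, with log2 fold changes of -0.03 (SE 0.38) for LIMD1-AS1, 0.69 (SE 0.47) for PRMT5-DT and 0.21 (SE 0.52) for POLG-DT. LIMD1-AS1 had 244, 161 and 137 scaled counts in the controls and 216, 170 and 136 under arsenite, in the same order of lines. Of PRMT5-DT, 52 of the 73 bases of the transfer RNA gene lie in exons. PRMT5-DT and POLG-DT were low, with mean counts of 13.7 and 7.5 per culture. The coding partners of all 3 fell: LIMD1 by 1.99, PRMT5, an arginine methyltransferase, by 2.67 and POLG, the mitochondrial DNA polymerase, by 2.08 on the log2 scale. Of 11 other long noncoding genes with a transfer RNA gene in their exons, 3 rose and 0 fell in the same edgeR test, with a median log2 fold change of 0.48. Their adjusted p was 0.0444 for LINC00240, 0.0477 for LINC00324 and 0.00346 for LINC01962. Among all other long noncoding genes 4.62% rose, and among all genes 1.12%. A link between transfer RNA genes and these changes was not tested.

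Other small RNA genes of RefSeq lay in the exons of 7 transcripts. MicroRNA genes were in BAALC-AS1, GABPB1-AS1, RAD21-AS1 and SBNO1-AS1. SNORA13, a small nucleolar RNA, was in EPB41L4A-AS1, and unnamed small nucleolar RNA loci were in UBA6-DT and ZSCAN16-AS1.

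Levels can be compared between transcripts only per length. On scaled counts per kilobase of exon, the median control level was 4.65 for the 278 transcripts, 6.13 for other long noncoding genes and 29.97 for coding genes, and under arsenite these medians were 3.15, 5.20 and 8.69. ZBED9-AS1 led with 1689, 1408 and 695 per kilobase in the controls of GM18505, GM19193 and GM19204. DTNB-AS1 followed with 214 in GM18505, 258 in GM19193 and 435 in GM19204, so these leading transcripts did not overlap in the controls. The next 6 by mean control level were GJD3-AS1 (188), KHDRBS2-OT1 (179), DACT3-AS1 (168), DMTF1-AS1 (152), P4HA3-AS1 (119) and MAP3K4-AS1 (115), and each overlapped its neighbours in this order.

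**Figure D3:**
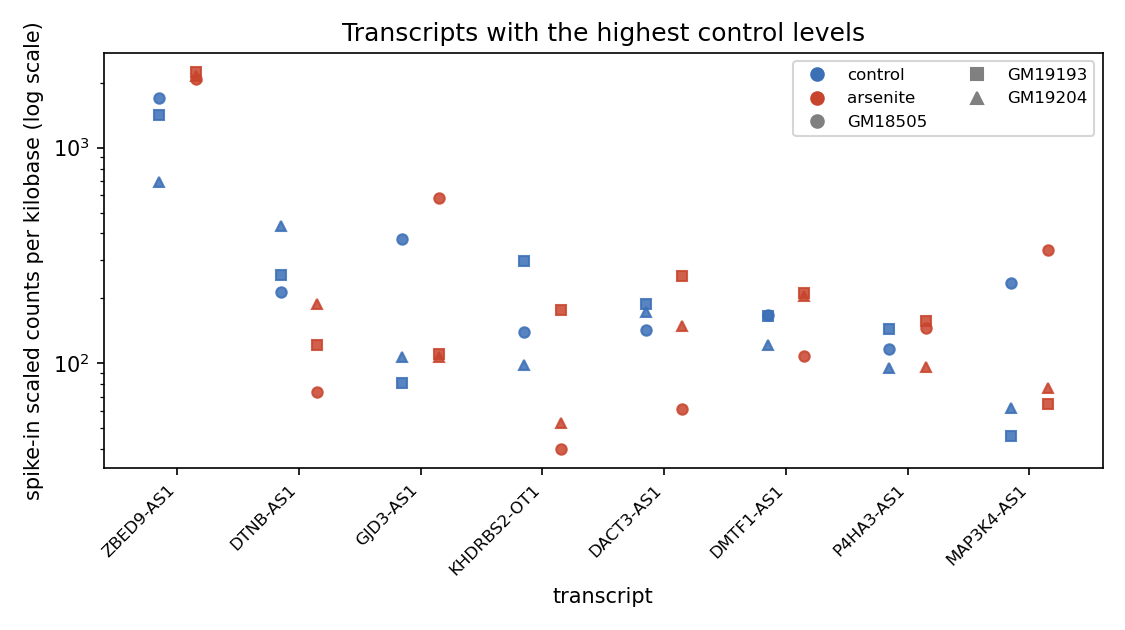
Scaled counts per kilobase of exon (log scale) of the 8 transcripts with the highest mean control level, 1 point per culture, controls in blue and arsenite in red, with a marker shape for each cell line. ZBED9-AS1 lies above all others, DTNB-AS1 lies lower under arsenite in each line, and GJD3-AS1 and MAP3K4-AS1 are highest in GM18505 in both conditions.

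Lines differed in a few of these transcripts. GJD3-AS1, whose exon bases all lie under exons of coding genes, had 377 scaled counts per kilobase in the control of GM18505 and 81.6 and 107 in those of GM19193 and GM19204. Under arsenite it had 582 in GM18505 and 111 and 107 in the other lines. MAP3K4-AS1 had 235, 46.3 and 62.4 per kilobase in the controls and 336, 64.8 and 76.8 under arsenite. GM18505 was thus the highest line in both conditions for both transcripts. Neither passed the test for arsenite, with log2 fold changes of 0.36 (SE 0.36) and 0.43 (SE 0.38). With 1 culture per line and condition, differences between lines were not tested.

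DACT3-AS1 went opposite ways in the lines. It had 144, 189 and 172 scaled counts per kilobase in the controls of GM18505, GM19193 and GM19204 and 61.8, 254 and 149 under arsenite, a fitted log2 fold change of -0.32 (SE 0.37, adjusted p = 0.431). Without GM18505 that value was 0.11, and without GM19193 it was -0.69 and passed. DMTF1-AS1 and P4HA3-AS1 did not pass either, with 0.17 (SE 0.39) and 0.16 (SE 0.37). SGMS1-AS1, the remaining transcript with a mean count of 200 or more, had -0.65 (SE 0.39), and its 65.9 scaled counts in the arsenite culture of GM18505 stood below the 190 to 274 of the other 5 cultures. Without GM19193 it passed, with -0.88. DTNB-AS1 fell, by 1.26 on the log2 scale (SE 0.40, adjusted p = 0.00248), with lower levels under arsenite in each line. That call was lost without GM18505 and turned to 0.58 with TMM.

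Of the 7 transcripts that rose, CHKB-DT rose most. CHKB-DT (ENSG00000205559, chr22:50583026-50595634, plus strand) is named after choline kinase beta, and its exons lie under no other gene's. It had 35.4, 21.4 and 19.4 scaled counts in the controls of GM18505, GM19193 and GM19204 and 118, 46.5 and 106 under arsenite. Every arsenite culture was above every control. Its log2 fold change was 1.78 (SE 0.42, adjusted p = 5.58e-05), and it passed in each of 15 alternatives, with adjusted p between 9.78e-09 and 0.0225. Its own coding gene was not analysed here.

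The other 5 rises had under 15 reads per culture on average. MAN1B1-DT had scaled counts of 3.37, 10.7 and 2.16 in the controls and 8.24, 34.1 and 3.05 under arsenite, which overlap, and a log2 fold change of 1.34 (SE 0.55, adjusted p = 0.0217). TSPAN5-DT had 5.06, 3.56 and 2.16 against 10.6, 8.26 and 6.86, without overlap, and 1.24 (SE 0.57, adjusted p = 0.0416). THAP9-AS1 had 10.1, 7.12 and 8.64 against 28.2, 21.7 and 11.4, without overlap, and 1.18 (SE 0.47, adjusted p = 0.0184). These rises were of a few reads in each library.

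HOXA-AS2, from the cluster of HOXA transcription factor genes, had 3.37, 5.93 and 4.32 scaled counts in the controls and 7.06, 15.5 and 9.14 under arsenite, and a log2 fold change of 1.17 (SE 0.54, adjusted p = 0.0416). In the T libraries alone its value was -0.37. RPL26L1-AS1 had 11.0, 13.0 and 3.24 against 32.9, 15.5 and 11.4, which overlap, and 1.15 (SE 0.48, adjusted p = 0.023). Each of the 5 calls was lost when at least 2 of the 3 lines were left out in turn, and TSPAN5-DT and HOXA-AS2 lost theirs in all 3 cases. Over all alternatives, MAN1B1-DT and THAP9-AS1 lost the call in 5, RPL26L1-AS1 in 6 and TSPAN5-DT in 8, and HOXA-AS2 in 7 beside the reversal.

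**Figure D4:**
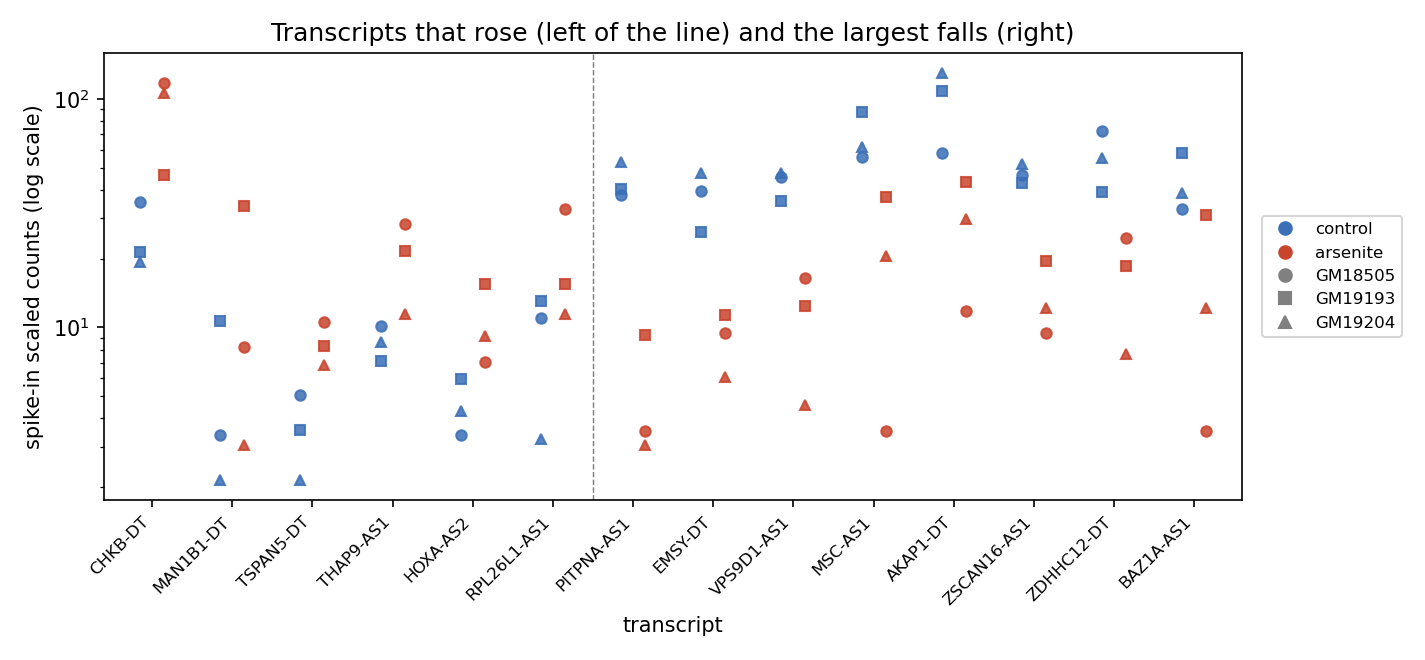
Scaled counts (log scale) of 6 transcripts that rose (left of the dashed line, ZBED9-AS1 not drawn) and of the 8 largest falls with a mean count of at least 20 (right of it), 1 point per culture, controls in blue and arsenite in red. Arsenite points of CHKB-DT lie between 46.5 and 118 against 19.4 to 35.4 in the controls, and those of PITPNA-AS1 between 3.05 and 9.30 against 38.0 to 52.9.

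The largest fall was that of PITPNA-AS1 (ENSG00000236618, chr17:1516877-1518101, plus strand), named after a transfer protein for phosphatidylinositol. It had 38.0, 40.3 and 52.9 scaled counts in the controls of GM18505, GM19193 and GM19204 and 3.53, 9.30 and 3.05 under arsenite. The log2 fold change was -3.10 (SE 0.50, adjusted p = 4.51e-09), and it passed in all 14 alternatives that kept it, TMM included. Of its exon bases 63.9% lie under exons of coding genes, and its partner PITPNA fell by 2.52 (SE 0.41).

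EMSY-DT (chr11:76435559-76444690, minus strand) overlaps no other gene's exons. It had 39.6, 26.1 and 47.5 scaled counts in the controls and 9.41, 11.4 and 6.10 under arsenite, and fell by 2.07 on the log2 scale (SE 0.47, adjusted p = 2.11e-05). VPS9D1-AS1 had 45.5, 35.6 and 47.5 against 16.5, 12.4 and 4.57, and fell by 2.04 (SE 0.46). AKAP1-DT had 58.2, 108 and 130 against 11.8, 43.4 and 29.7, and fell by 1.87 (SE 0.42). In each of these the arsenite cultures lay below all controls.

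MSC-AS1, whose partner musculin is a transcription factor first found in activated B cells, had 55.7, 87.8 and 61.5 scaled counts in the controls and 3.53, 37.2 and 20.6 under arsenite, and fell by 1.95 (SE 0.44). BAZ1A-AS1 had 32.9, 58.1 and 38.9 against 3.53, 31.0 and 12.2, and fell by 1.69 (SE 0.45). Of its exon bases 44.9% lie under exons of its partner BAZ1A. With a line left out, BAZ1A itself had log2 fold changes from -1.84 to -1.48. MSC-AS1 and BAZ1A-AS1 were both lowest in the arsenite culture of GM18505. Without that line both calls were lost, with adjusted p of 0.0568 and 0.0758. ZSCAN16-AS1 fell by 1.80 (SE 0.45) and ZDHHC12-DT by 1.78 (SE 0.44), also without overlap between the groups. The call of BAZ1A-AS1 was also lost in T libraries alone. With TMM scaling PITPNA-AS1 was the 1 of these 8 falls to keep its call, and ZSCAN16-AS1, ZDHHC12-DT and BAZ1A-AS1 had values of 0.01, 0.03 and 0.12.

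The transcripts were grouped by name, position and overlap. Of all 278 transcripts 24.1% fell and 2.52% rose, against 74.1% and 1.12% of all genes. The median log2 fold change was -0.35 both for the 210 -AS transcripts, of which 45 fell and 4 rose, and for the 64 -DT transcripts, of which 19 fell and 3 rose. In the annotation 121 transcripts started inside the gene of their name and ran past its start (median -0.37), 61 overlapped it in another antisense way (-0.36), 43 lay inside it on the other strand (-0.29) and 43 ran away from it without overlap (-0.50, of which 14 fell). The 4 on the same strand as their gene had a median of -1.32, and 3 of them fell (75%, near the share of all genes). The median was -0.33 for the 42 whose exons lie under no other gene, of which 12 fell and 3 rose, and -0.29 for the 19 with over 50% of their exon bases under coding exons, of which 7 fell. The shares that fell were 21.4% of the -AS transcripts, 29.7% of the -DT transcripts and 32.6% of those that ran away without overlap. They were 28.6% of the 42 under no other gene and 36.8% of the 19 under coding exons. No test was made between these groups.

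Transcripts that share the strand of their named gene were few. GABPB1-IT1, which lies within the gene of a subunit of the GABP transcription factor, had 14.3, 26.1 and 15.1 scaled counts in the controls and 4.70, 6.20 and 3.05 under arsenite, and fell by 1.98 (SE 0.52, adjusted p = 0.000223). Its partner GABPB1 fell by 2.68 (SE 0.41), and reads of unspliced GABPB1 RNA cannot be told apart from those of the intronic transcript. ANXA2R-OT1 fell by 1.52 (SE 0.49), a call that was lost without GM19204, and KHDRBS2-OT1 fell by 1.11 (SE 0.40), a call that was lost without GM18505, with no scaling and with no replicate block. With TMM both had values above 0, 0.28 and 0.68. MUC20-OT1 did not pass, with at most 16.6 scaled counts in a control and up to 22.7 under arsenite, without overlap, and a log2 fold change of 0.69 (SE 0.45, adjusted p = 0.153), and it passed with limma, RUVg and TMM.

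EPB41L4A-AS1 is a host of SNORA13 and was the 1 transcript on a list of noncoding hosts of small nucleolar RNAs. Spliced host RNAs of this kind often carry a 5′ terminal oligopyrimidine start and are bound by ribosomes. It had 32.0, 27.3 and 46.4 scaled counts in the controls and 10.6, 23.8 and 22.1 under arsenite, and fell by 0.93 (SE 0.44, adjusted p = 0.045). The call was lost in 8 of 14 alternatives, which were those without GM18505, without GM19204, with 4 or with 16 oligomers, with no scaling, with no replicate block, with U libraries alone and with DESeq2, and with TMM the value was 0.91. Of the 22 measured hosts on that list, 12 fell (54.55%) and 0 rose in the edgeR test, with a median of -0.95. Among all genes 74.1% fell and 1.12% rose, and among other long noncoding genes 14.9% fell and 4.62% rose. Of 14 stress messenger RNAs on another list 5 fell (35.7%) and 3 rose (21.4%), with a median of -0.105.

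Most coding partners fell. Of the 208 partners 169 fell (81.25%, against 81.16% of coding genes) and 1 rose, with a median log2 fold change of -1.99. Both genes fell in 43 pairs, and in 126 pairs the partner fell while the transcript did not pass. The transcript fell and the partner did not pass in 8 pairs, neither passed in 30, and the transcript rose while the partner fell in 2, which were MAN1B1-DT and RPL26L1-AS1. In 1 pair the transcript rose and the partner did not pass, THAP9-AS1 with THAP9 (-0.74, SE 0.40, and without GM19193 -0.87, which passed), and in 1 the partner rose and the transcript did not pass, ADGRL1-AS1 with the adhesion receptor gene ADGRL1 (1.39, SE 0.48). A p that missed the threshold does not show that a transcript did not change. These joint counts were not set against those of unrelated genes, so they do not show whether the genes of a pair go together.

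Within a culture the ratio of transcript to partner needs no scale. The change of the transcript minus that of its partner, from log2 ratios of counts with a pseudocount of 0.5, had a median of 1.25 over 211 pairs, and of 1.37, 1.10 and 1.69 in GM18505, GM19193 and GM19204. It was above 0 in all 3 lines in 145 pairs (68.7%) and below 0 in 7 (3.32%). When each transcript was set against every coding gene of the table in turn, the shares were 67.6% and 6.2%, so the count above 0 was near the background and says nothing particular of the partners. An exact sign-flip test over 3 lines cannot go below 0.25, and none was made. Per kilobase the partner was above the transcript in 172 pairs in the controls and in 154 under arsenite, and the median ratio of partner to transcript was 6.59 in the controls and 2.99 under arsenite.

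**Figure D5:**
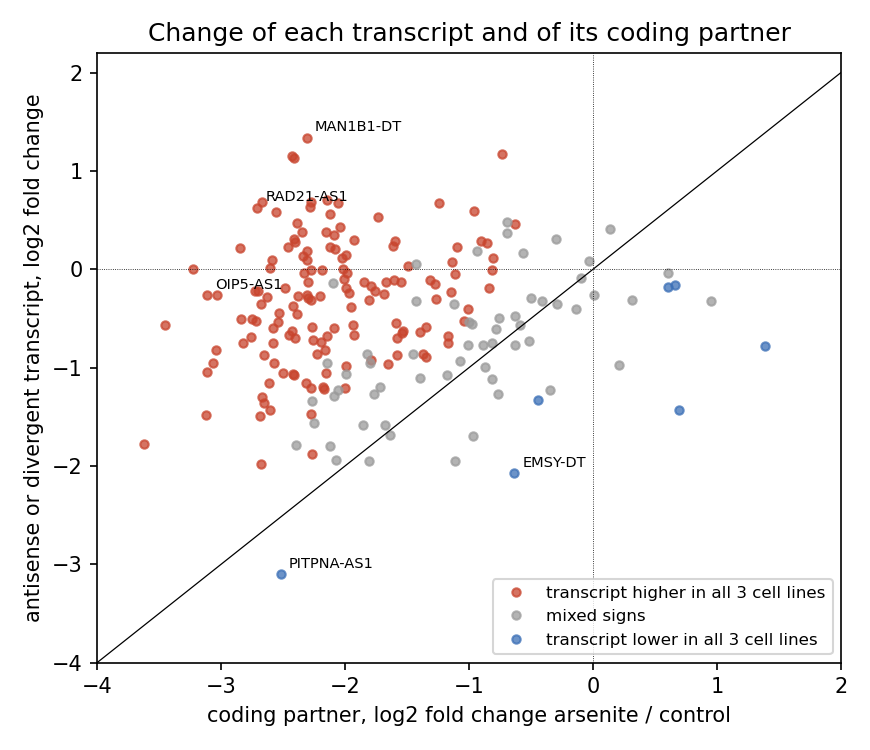
Log2 fold change (arsenite over control, spike-in scale) of each transcript against that of its coding partner for 211 pairs, coloured by whether the transcript's change was above (red, 145) or below (blue, 7) its partner's in all 3 cell lines. Most points lie above the diagonal of equal change.

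The 6 pairs with the widest gap in favour of the transcript, among those with 20 or more reads per culture in both genes, were made of a partner that fell and a transcript that did not pass. RAD21, a cohesin subunit, had 1567, 1783 and 2146 scaled counts in the controls of GM18505, GM19193 and GM19204 and 199.98, 403 and 266 under arsenite. RAD21-AS1 had 75.1, 60.5 and 45.3 against 119, 104 and 61.0. The difference of their changes was 3.33 ± 0.36 (SD, n = 3). OIP5, a centromere protein, fell by 3.11 (SE 0.44), while OIP5-AS1 had 17.7, 53.4 and 63.7 scaled counts against 25.9, 44.4 and 33.5 and did not pass. PCBP1, an RNA-binding protein, fell by 3.45 (SE 0.40), and PCBP1-AS1, with -0.56 (SE 0.42), did not pass.

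The other 3 pairs were close to these. FAM169A-AS1, with 45.5, 54.6 and 42.1 scaled counts against 50.6, 87.8 and 96.0, had a difference from its partner of 3.12 ± 0.94 (SD, n = 3). For GARS1-DT and GARS1, a transfer RNA synthetase for glycine, it was 3.07 ± 1.30 (SD, n = 3). For PSMA3-AS1 and PSMA3, a proteasome subunit, it was 2.86 ± 0.35 (SD, n = 3). In the T libraries alone the change of PSMA3-AS1 itself was -0.02. None of these 6 transcripts passed the test, with log2 fold changes from -0.56 to 0.68.

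In 4 pairs with such reads the transcript went below its partner in all 3 lines. EMSY, a nuclear partner of BRCA2, had 75.9, 108 and 125 scaled counts in the controls and 42.3, 103 and 61.7 under arsenite, and did not pass (-0.64, SE 0.40), and EMSY-DT minus EMSY was -1.38 ± 0.43 (SD, n = 3). For the transcription factor gene ZFHX3, which did not pass (-0.45, SE 0.36), and ZFHX3-AS1, which fell by 1.33 (SE 0.45), it was -0.90 ± 0.62 (SD, n = 3). The call of ZFHX3-AS1 was lost without GM18505, without GM19204, with no replicate block and in T libraries alone, and turned to 0.47 with TMM. Without GM19193, EMSY and ZFHX3 passed, with -0.94 and -0.67. MAGI2, a scaffold protein, had 117, 75.9 and 82.0 scaled counts against 135, 148 and 131, and MAGI2-AS3 minus MAGI2 was -0.77 ± 0.55 (SD, n = 3), although neither passed. PITPNA-AS1 minus PITPNA was -0.56 ± 0.34 (SD, n = 3).

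Start sites lay at most 1000 bases apart in 99 pairs, and the difference had a median of 1.52 there and of 0.91 in the 112 others. The medians of the transcripts themselves were alike, -0.44 in both sets, and those of the partners were -2.15 and -1.62. The 3 promoter windows below are those of 2 divergent transcripts, MAN1B1-DT and EMSY-DT, and, for contrast, of the largest fall. The 2 were picked, with values known, for how far their change lay from their partner's, 3.37 and -1.38 (log2). Their windows overlap their partner's, as do those of AKAP1-DT and ZDHHC12-DT, which are not printed. MAN1B1-DT starts 40 bases from MAN1B1, an endoplasmic reticulum mannosidase that fell by 2.31 (SE 0.42) while the transcript rose. The last 267 bases of the printed MAN1B1-DT window are common with the RefSeq window of MAN1B1. EMSY-DT starts 233 bases from EMSY, and the first 163 bases of its printed window are common. PITPNA-AS1, the largest fall, starts 45915 bases from the start of PITPNA and shares none. Windows of RefSeq in GRCh38.p14 run from 250 bases before to 50 after the start, 5′ to 3′ on the strand of the transcript, with matches to 6 motifs in capitals.
MAN1B1-DT, chr9:137086768-137087067, minus strand: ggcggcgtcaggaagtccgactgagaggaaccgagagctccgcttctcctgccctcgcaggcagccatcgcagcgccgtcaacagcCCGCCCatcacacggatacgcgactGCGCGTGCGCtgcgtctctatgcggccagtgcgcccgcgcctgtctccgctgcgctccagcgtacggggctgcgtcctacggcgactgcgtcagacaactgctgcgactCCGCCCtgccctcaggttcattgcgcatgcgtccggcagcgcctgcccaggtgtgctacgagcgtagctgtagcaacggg
EMSY-DT, chr11:76444631-76444930, minus strand: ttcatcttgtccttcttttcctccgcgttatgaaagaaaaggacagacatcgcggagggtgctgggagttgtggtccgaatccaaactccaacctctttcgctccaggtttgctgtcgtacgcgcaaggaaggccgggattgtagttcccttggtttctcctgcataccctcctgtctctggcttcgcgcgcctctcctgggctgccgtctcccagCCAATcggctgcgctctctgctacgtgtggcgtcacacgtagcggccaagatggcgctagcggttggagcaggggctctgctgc
PITPNA-AS1, chr17:1516669-1516968, plus strand: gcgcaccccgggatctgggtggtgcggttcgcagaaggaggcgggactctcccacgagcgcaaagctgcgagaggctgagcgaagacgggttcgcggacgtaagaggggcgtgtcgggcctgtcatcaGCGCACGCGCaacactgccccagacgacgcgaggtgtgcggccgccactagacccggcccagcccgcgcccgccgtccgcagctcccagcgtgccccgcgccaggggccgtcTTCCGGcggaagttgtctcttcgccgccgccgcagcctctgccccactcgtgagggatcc

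The motifs were CCAAT for the factor NF-Y, GGGCGG for SP1, CCGGAA for ETS factors, TATAAA for the TATA box, TGACGTCA for CREB and the palindrome of NRF1, each read on both strands, and no match overlapped another in these windows. MAN1B1-DT had GGGCGG at bases 87 to 92 and 221 to 226 and the NRF1 palindrome at 112 to 121. EMSY-DT had CCAAT at 217 to 221, outside the 163 bases common with the window of EMSY. PITPNA-AS1 had the NRF1 palindrome at 129 to 138 and CCGGAA at 241 to 246. A RefSeq window was found for 215 of the 278 transcripts and 177 of the 208 partners, some with several windows.

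GGGCGG was in 60.5% of 266 windows of the transcripts, 59.4% of 313 of the partners and 44.9% of 34943 in all. CCGGAA was in 28.9%, 23.6% and 17.2%. The NRF1 palindrome was in 12.8%, 7.67% and 5.74%. TATAAA was in 6.77%, 10.5% and 11.6%, CCAAT in 38.0%, 35.8% and 34.7% and TGACGTCA in 2.63%, 2.24% and 1.84%. The median number of CG dinucleotides in a window was 24.5, 25 and 14. Windows of a transcript and its partner overlap in divergent pairs and are not independent.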

How the data were processed

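Ribosome footprints of 6 cultures (3 lymphoblastoid lines, control or 134 µM sodium arsenite) were sequenced in 12 libraries. Per the labels and the study's methods, the authors trimmed reads with FASTX-Toolkit, removed ribosomal, transfer and small nucleolar RNA, mapped to GRCh38 with TopHat2 (GENCODE release 37, up to 2 mismatches, unique reads) and deposited counts per gene from featureCounts of Subread, not normalized, and counts per oligomer. They kept the 12357 genes that had a read in each library. Tool versions: not given in the sources used here.

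Counts of both libraries were summed per culture and tested with edgeR 4.0.16 in R 4.3.3 (glmQLFit and glmQLFTest, two-sided, treatment and cell line, Benjamini-Hochberg over all genes at 0.05). The line was the block, since control and arsenite cultures pair by line. The spike-in scale replaced library sizes. It used the 7 of 16 oligomers that reached 10 reads in each library, as log2 count minus log2 nominal concentration. p-values rest on the spread between these cultures, which the fit pools in part over genes, so an SE is not a gene's own spread. The error of the spike-in scale is not in them. The test was checked on simulated data.

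GENCODE release 44 (GRCh38) gave symbols, exons and positions, and 12343 identifiers had an annotation. Small RNA genes and promoter windows came from RefSeq on GRCh38.p14.

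The transcripts, lists and motifs were chosen with earlier results of these data known. Named were every rise, the 8 largest falls with a mean count of at least 20 and the same sign in 3 lines, the 8 highest control levels per kilobase, up to 6 pairs in each direction with a mean count of at least 20 in both genes and the same sign, every -OT1 and -IT1 transcript and the hosts of small nucleolar RNAs. The transcripts with transfer RNA genes, SGMS1-AS1 and ADGRL1-AS1 were named after their values were seen.

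Alternatives were each line left out, T (CRISPR-treated) or U libraries alone, the 4 most concentrated or all 16 oligomers, TMM, no scaling, no block, mean counts of at least 10 or 50, DESeq2 1.42.0, limma 3.58.1 on log2(count + 0.25) of 12 libraries with and without RUVg at 3 factors, and pseudocounts of 0.25 and 1 for the pair ratio.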

Additional observations from a re-analysis of the deposited data

How the results depend on the processing

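The 67 falls among the transcripts became 36 without scaling, 8 of 32 transcripts at a mean count of at least 50, 44 with T libraries alone, 44 with DESeq2 and 1 with TMM, and lay between 24 (without GM18505) and 88 (without GM19193) with a line left out. The 7 rises became 4 without scaling, 4 at a mean count of at least 10, 2 at 50, 3 with T libraries alone, 2 with DESeq2, 11 with limma, 19 with RUVg and 181 with TMM, and lay between 2 and 4 with a line left out. With no replicate block there were 39 falls and 1 rise among the transcripts. With TMM the all-gene median moved by 1.81 (log2), while the median of the transcripts minus that of all genes was 1.41, against 1.42 before. The cause of the other moves was not tested. Fewer genes enter at higher minimum counts, and fewer cultures with a line left out. The median log2 fold change of the transcripts, -0.36, reversed with TMM, to 1.44, and otherwise lay between -0.49 and -0.24.

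Over all genes TMM gave 3290 falls and 3433 rises. The 9162 falls over all genes became 8308 without scaling, 8421 with no replicate block, 8697 with T libraries alone and 8903 with DESeq2. At a mean count of at least 50 they were 7403 of 8265 genes. With a line left out they lay between 6708 (without GM18505) and 9642 (without GM19193). The 138 rises became 213 with 16 oligomers, 84 without scaling, 79 with no replicate block, 69 at a mean count of at least 50, 88 with DESeq2, 226 with limma and 367 with RUVg, and lay between 58 and 149 with a line left out. Pairs with the transcript below its partner in every line used numbered 7, and between 10 and 16 with a line left out. Pairs with the transcript above its partner in every line used numbered 145, and between 159 and 161 with a line left out. With a line left out fewer lines have to agree, so both counts can only stay or grow, and their growth does not show a change in the pairs. The mean share of counts without ZBED9-AS1, an alternative chosen after seeing the data, was 0.155% in the controls and 0.393% under arsenite. On summed scaled counts, arsenite minus control was 813 on average over lines, and without ZBED9-AS1, also chosen after seeing the data, -1754.

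Named genes changed sign mostly under TMM, where log2 fold changes were 0.0101 for ZSCAN16-AS1, 0.0328 for ZDHHC12-DT, 0.12 for BAZ1A-AS1, 0.58 for DTNB-AS1, 0.68 for KHDRBS2-OT1, 1.51 for DACT3-AS1, 1.52 for OIP5-AS1, 1.25 for PCBP1-AS1, 0.47 for ZFHX3-AS1, 1.63 for MAGI2-AS3, 0.28 for ANXA2R-OT1, 0.91 for EPB41L4A-AS1, 1.78 for LIMD1-AS1, 1.20 for SGMS1-AS1, 1.07 for THAP9, 1.18 for EMSY, 0.0154 for MSC, 0.18 for BAZ1A, 1.26 for DMTF1 and 1.37 for ZFHX3. With T libraries alone HOXA-AS2 had -0.37, PSMA3-AS1 -0.024 and MAGI2-AS3 0.0645. With a line left out, values ran from -0.69 to 0.11 for DACT3-AS1, -0.13 to 0.55 for DMTF1-AS1, -0.0908 to 0.63 for GARS1-DT, -0.60 to 0.0993 for OIP5-AS1, -0.34 to 0.0652 for MAGI2-AS3, -0.0912 to 2.18 for DACT3, -0.0924 to 0.0356 for LIMD1-AS1 and -0.0214 to 0.63 for POLG-DT. LIMD1-AS1 had 0.082 with 16 oligomers, 0.0394 without scaling, 0.0174 with limma and 0.0432 with RUVg, and MAGI2-AS3 0.014 with limma and 0.0005 with RUVg. No named pair changed sign among those with 1 sign in 3 lines.

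Low counts limit single transcripts, since 158 of the 278 had a mean under 20 reads per culture.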
